A study of Mus musculus with 6 samples.

Results

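Matrix proteoglycans, elastic fibers and crosslinking enzymes were examined as 36 genes, taken by symbol from a written list out of the 31130 genes counted in each of 6 mouse lung tumors. The list held 7 small leucine-rich proteoglycans, 13 elastic fiber and microfibril proteins, 7 crosslinking enzymes and 9 matricellular and provisional matrix proteins. All 36 had at least 1 unique molecular identifier (UMI) in at least 1 tumor. The question put to these genes was whether matrix made by resident fibroblasts and matrix laid down after injury differed between tumors grown in bleomycin-injured lung and tumors grown without bleomycin.

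The tumors came from wild-type female C57BL/6 mice that were 6 to 8 weeks old. Both groups received Lewis lung carcinoma (LLC) cells, an established mouse lung cancer line, by injection through the pleura into the left lung, in a mixture with a basement membrane extract. In the IP+LC model (n = 3), the mice had aspirated bleomycin, an antitumor drug used to bring about lung injury and fibrosis, 14 days before the cells were injected (2.0 mg/kg body weight). The LC model (n = 3) received the cells without bleomycin. Tumor tissue was taken on day 21 and sequenced in bulk from the 3′ ends of transcripts, so that a level is a number of molecules from all cells of the piece and not from 1 cell type. The written methods do not say whether day 21 is counted from bleomycin or from cell injection. The labels name the cell type as lung cancer cells, but markers of alveolar and airway epithelium were counted in all 6 libraries, and their summed levels are given with the other marker lists.

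The extracellular matrix of the lung is built from collagen fibrils, elastic fibers and a hydrated ground substance. Small leucine-rich proteoglycans such as decorin bind collagen fibrils and set their thickness and spacing. Elastic fibers hold a core of elastin on a scaffold of fibrillin microfibrils, and fibulins, EMILINs and microfibril-associated proteins join the pieces. Lysyl oxidases crosslink elastin and collagen outside the cell, while lysyl hydroxylases (Plod genes) prepare collagen for these crosslinks inside it. Fibronectin, tenascin-C, versican and periostin are matricellular or provisional matrix proteins, known for their appearance after injury and in tumor stroma.

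Among the genes with a promoter sequence in RefSeq, Ogn and Prelp had the largest fitted decreases and Vcan and Tnc the largest fitted increases, and their promoters are shown for this reason. The 250 bases before the start of each are printed 5′ to 3′ on the strand of the gene, from build GRCm38.p6. The stretches lie at chr13:49607765-49608014 (plus strand) for Ogn, chr1:133921402-133921651 (minus strand) for Prelp, chr13:89742513-89742762 (minus strand) for Vcan and chr4:64047016-64047265 (minus strand, the first of the 2 starts listed) for Tnc. Capitals mark the letters TATAAA.
Ogn: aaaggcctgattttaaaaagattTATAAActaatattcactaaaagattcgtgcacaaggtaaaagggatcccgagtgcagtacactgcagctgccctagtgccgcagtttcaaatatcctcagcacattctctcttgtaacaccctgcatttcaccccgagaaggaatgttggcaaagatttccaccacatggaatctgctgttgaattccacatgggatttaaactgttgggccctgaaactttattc
Prelp: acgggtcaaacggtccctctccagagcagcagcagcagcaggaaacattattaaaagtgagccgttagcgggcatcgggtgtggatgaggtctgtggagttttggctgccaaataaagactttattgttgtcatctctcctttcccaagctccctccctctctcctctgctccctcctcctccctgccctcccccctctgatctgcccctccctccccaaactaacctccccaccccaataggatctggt
Vcan: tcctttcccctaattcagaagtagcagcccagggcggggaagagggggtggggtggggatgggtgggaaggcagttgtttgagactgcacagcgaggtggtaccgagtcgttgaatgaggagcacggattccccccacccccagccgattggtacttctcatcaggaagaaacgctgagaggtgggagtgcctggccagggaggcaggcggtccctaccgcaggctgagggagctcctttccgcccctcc
Tnc: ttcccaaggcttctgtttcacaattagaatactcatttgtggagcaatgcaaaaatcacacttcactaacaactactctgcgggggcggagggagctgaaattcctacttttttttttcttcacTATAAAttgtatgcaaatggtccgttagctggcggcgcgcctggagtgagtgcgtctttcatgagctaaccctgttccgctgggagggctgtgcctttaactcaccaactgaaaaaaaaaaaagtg
RefSeq promoter windows of 300 bases, 250 before and 50 after the start, were found for 21 of the 36 genes, in 29 windows. The letters TATAAA, searched on the gene's strand only, stood in 5 of the 29 windows and in 8.32% of all 32851 windows. The 5 windows belonged to 4 of the 21 genes, which were Tnc among those higher in IP+LC and Aspn, Ogn and Postn among those lower. The core of the hypoxia response element, ACGTG or GCGTG on either strand, stood in 15 of the 29 windows and in 43.8% of all windows. It was found in 4 of the 6 genes with a window that were higher in IP+LC and in 7 of the 9 that were lower. The AP-1 site TGANTCA and the GAS element TTCNNNGAA, on either strand, were each found in 1 of the 29 windows, those of Efemp1 and Emilin2, against 7.81% and 8.30% of all windows. These matches describe letters in a window and do not show binding.

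Depth was 592733 UMIs in LC replicate 1 and between 1336919 and 1631066 UMIs in the other 5 libraries. LC replicate 1 also stood apart from the rest of its group. Its log2(CPM + 4) values, where CPM is the UMIs of a gene per 1000000 UMIs in the tested genes of its library after TMM scaling, had a Pearson's r of 0.840 and 0.799 with theirs across genes, while theirs had 0.962 with each other and the IP+LC libraries 0.968 to 0.973. With the IP+LC libraries its r was 0.796 to 0.822, about as high as with its own group, and its label was used as given. A level of 3 UMIs, taken as the limit of detection, was 5.17 CPM in LC replicate 1 and 1.75 to 2.54 CPM in the others. Levels are given as CPM in replicates 1, 2 and 3, and the groups were compared by edgeR's quasi-likelihood test over all genes with enough UMIs, at an adjusted p of 0.1. Of 11240 genes tested, 36.4% were called, with 16.8% higher and 19.6% lower in IP+LC, and the median log2 fold change was 0.018. Higher genes made up 46.1% of the calls, or 58.3% when libraries were scaled by their totals only.

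Of the 36 matrix genes, 33 had enough UMIs for the test, and 22 of these were called, against 36.4% of all genes tested: 8 were higher in IP+LC and 14 were lower (background 16.8% and 19.6%), and 11 were not called. The median log2 fold change of the 33 was -0.17. Fmod, Fbn2 and Cthrc1 were not tested. The 3 IP+LC tumors did not overlap the 3 LC tumors in 24 of the 33 genes, 9 above and 15 below, against 43.1% of all tested genes (21.6% above and 21.5% below). The summed level of the 36 genes was 9602 to 10289 CPM in the LC tumors and 6317 to 8019 CPM in the IP+LC tumors. Mgp, which was not called, had the highest level, and the other 35 genes summed to 5648 to 6824 and 4414 to 5261 CPM. In bulk tissue, fewer cells of a type and less RNA per cell cannot be told apart, and this holds for each gene in the text. Without LC replicate 1, none of the 22 calls was lost, and Emilin1, Fbn1 and Plod1 were also called higher and Mgp lower. With another tumor left out, fewer genes were called. Leaving out LC replicate 2 gave 3 higher and 9 lower genes, and leaving out LC replicate 3 gave 4 and 12. Leaving out an IP+LC tumor gave 5 higher and 8 lower for replicate 1, 4 and 6 for replicate 2, and 6 and 12 for replicate 3.

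**Figure D1:**
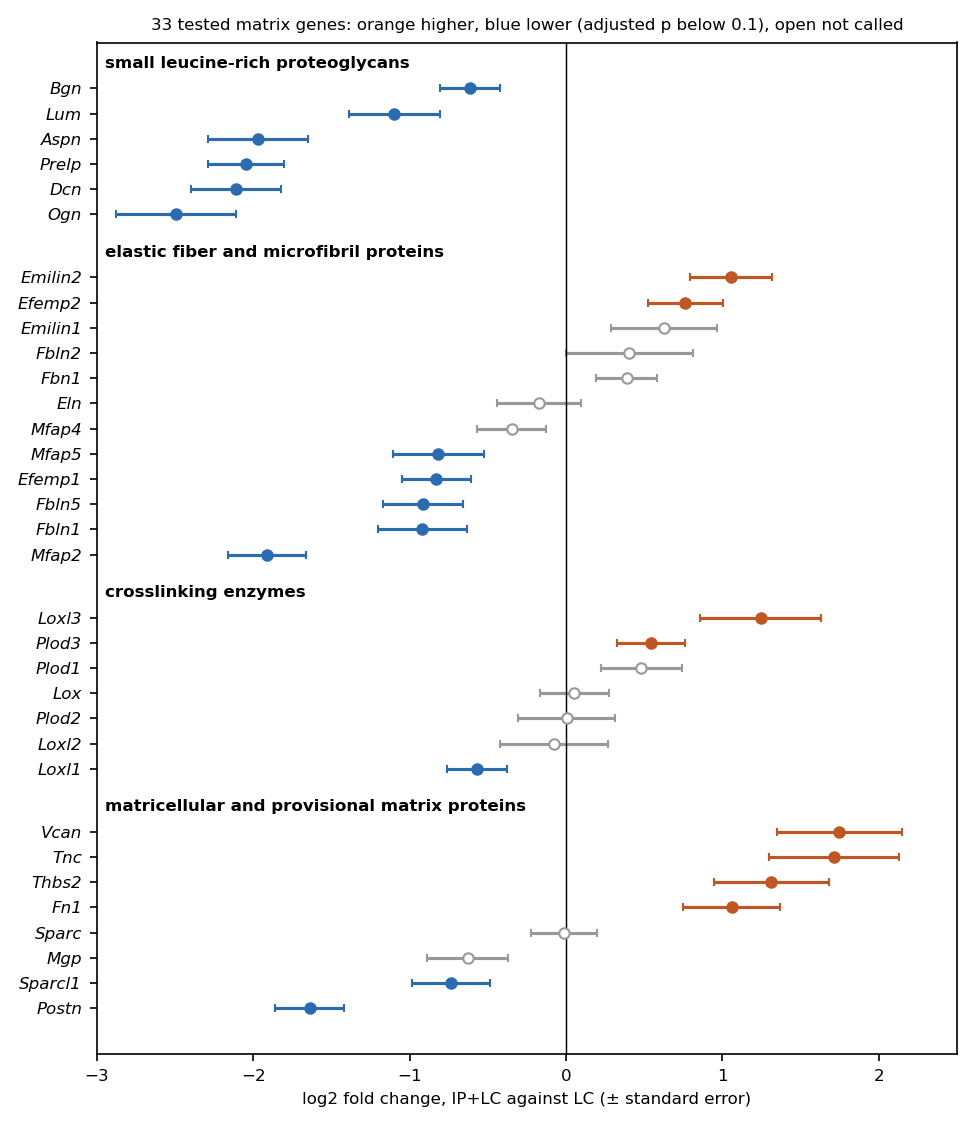
Log2 fold change of each tested matrix gene, IP+LC against LC, with its standard error, grouped by role. Orange points are the 8 genes called higher, blue points the 14 called lower and open points the 11 not called at an adjusted p of 0.1; every tested small leucine-rich proteoglycan lies left of 0.

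Small leucine-rich proteoglycans were lower in the IP+LC tumors. All 6 that were tested were called lower, against 19.6% of all tested genes, with a median log2 fold change of -2.01, and in all 6 each IP+LC tumor was below each LC tumor. Their summed level, Fmod included, was 1608 to 2718 CPM in the LC tumors and 610.5 to 817 CPM in the IP+LC tumors. Ogn encodes osteoglycin, also called mimecan, which is found on collagen fibrils. Its level was 359.9, 881 and 912 CPM in the LC tumors and 142, 87 and 155 CPM in the IP+LC tumors. LC replicates 2 and 3 were the highest and LC replicate 1 was in between, above each IP+LC tumor. The log2 fold change was -2.49 (SE 0.39, adjusted p = 0.00262), which is 5.63-fold lower.

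Decorin (Dcn), which binds collagen fibrils and TGF-β, was counted at 475, 954 and 856 CPM in the LC tumors and 194, 149 and 188 CPM in the IP+LC tumors. The IP+LC tumors were close to each other and all below LC replicate 1, the lowest of the LC tumors. The decrease was 4.32-fold (log2 fold change -2.11, SE 0.29, adjusted p = 0.00165). Prelp, a proteoglycan that anchors basement membranes to connective tissue, was at 217, 283 and 242 CPM in the LC tumors and 52.2, 50.2 and 77.7 CPM in the IP+LC tumors. Each IP+LC tumor was far below each LC tumor, including LC replicate 1 (log2 fold change -2.05, SE 0.24, adjusted p = 0.00116). Asporin (Aspn), a collagen-binding relative of decorin, was at 37.9, 36.8 and 50.8 CPM in the LC tumors and 13.8, 12.3 and 5.81 CPM in the IP+LC tumors. The lowest value was that of IP+LC replicate 3, which rested on 8 UMIs (log2 fold change -1.97, SE 0.32, adjusted p = 0.00335).

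Lumican (Lum), which spaces collagen fibrils, was at 32.7, 31.3 and 39 CPM in the LC tumors and 21.8, 11.1 and 16 CPM in the IP+LC tumors. Biglycan (Bgn), which binds collagen and can act as a danger signal, was at 477, 524 and 480.5 CPM in the LC tumors and 304, 295 and 369.6 CPM in the IP+LC tumors. The groups of both genes were separate, with smaller distances than for decorin. The log2 fold changes were -1.10 (SE 0.29, adjusted p = 0.0226) for Lum and -0.61 (SE 0.19, adjusted p = 0.0435) for Bgn. The call of Lum was lost without IP+LC replicate 2 (adjusted p = 0.106), and that of Bgn without LC replicate 2, IP+LC replicate 1 or IP+LC replicate 2 (adjusted p = 0.137 to 0.189), with scaling by library totals and with a replicate block (adjusted p = 0.104). Fibromodulin (Fmod), which regulates collagen fibril assembly, had too few UMIs for the test, with 5, 9 and 11 UMIs in the LC tumors and 2, 10 and 7 in the IP+LC tumors.

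Several of these proteoglycan genes are neighbors in the genome. In the GENCODE M21 annotation of GRCm38, Dcn lies at chr10:97479609-97518143 and Lum follows on the same strand at chr10:97565128-97572703. Aspn (chr13:49544443-49567565) and Ogn (chr13:49608046-49624501) share a stretch of chromosome 13 with Ecm2 before them and Omd between them, which encode related leucine-rich proteins. Ecm2 and Omd are not among the 36 genes and were picked after their values were seen. Both were lower in IP+LC, with log2 fold changes of -2.09 (adjusted p = 0.0113) and -1.75 (adjusted p = 0.0677). The call of Omd was lost when any 1 tumor other than LC replicate 1 was left out (adjusted p = 0.102 to 0.235) and with DESeq2's Wald test. Prelp lies at chr1:133910304-133921414, and 9.68% of its exonic bases overlap Gm15851 on the other strand, and reads of the overlap cannot be told apart if strand was not used in counting.

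**Figure D2:**
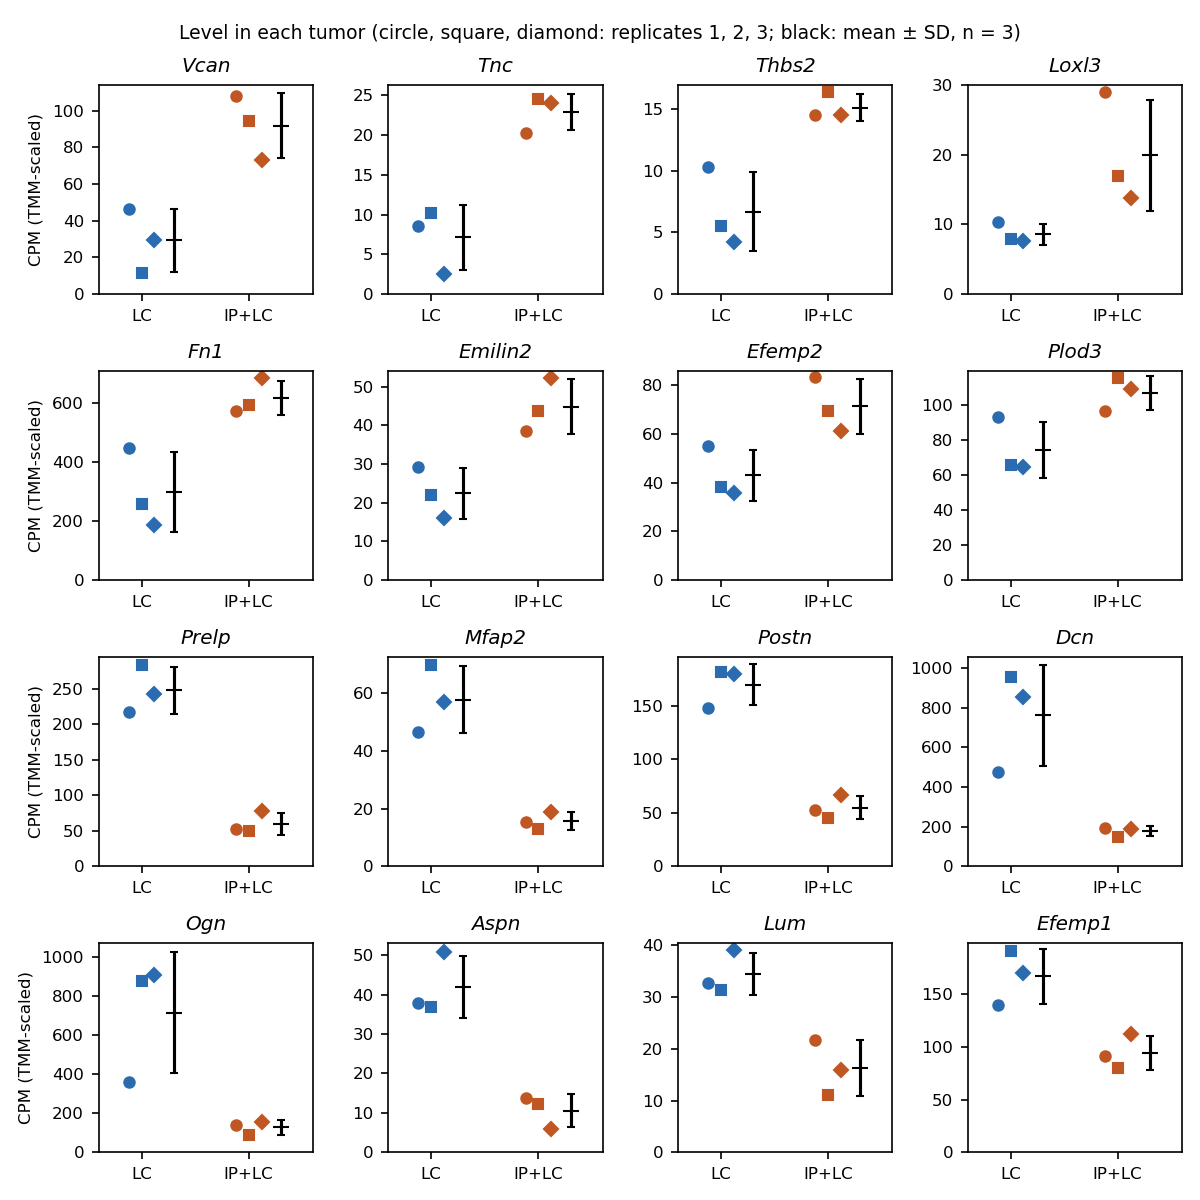
Level in CPM of the 8 genes called higher and of 8 of the genes called lower in each tumor, with circles, squares and diamonds for replicates 1, 2 and 3 and black bars for the mean ± SD (n = 3). In each of the 16 panels the IP+LC tumors (orange) and the LC tumors (blue) do not overlap; Dcn and Ogn of LC replicate 1 lie between the other LC tumors and the IP+LC tumors.

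Elastic fiber and microfibril genes were divided. Of the 12 tested, 2 were higher (Emilin2 and Efemp2), 5 were lower (Mfap2, Fbln1, Fbln5, Efemp1 and Mfap5) and 5 were not called, against 16.8% higher and 19.6% lower over all tested genes, so that the share of higher genes was near that of all genes. Without IP+LC replicate 2 only Mfap2 was still lower, and 2 genes were lower when IP+LC replicate 1 was left out and 3 when LC replicate 2 was. When any of these or LC replicate 3 was left out 1 gene was higher, but 4 were higher without LC replicate 1. The summed level was 1103 to 1233 CPM in the LC tumors and 881 to 1154 CPM in the IP+LC tumors. Elastin (Eln), the core protein of the fiber, was at 282, 233 and 254 CPM in the LC tumors and 171, 188 and 323 CPM in the IP+LC tumors. IP+LC replicate 3 was above all LC tumors and the other IP+LC tumors were below them (log2 fold change -0.17, SE 0.27, adjusted p = 0.667). Fibrillin-1 (Fbn1), the main protein of microfibrils, was at 68.9, 53.3 and 55.1 CPM in the LC tumors and 76.1, 77.6 and 75.5 CPM in the IP+LC tumors. The 3 IP+LC tumors were above the 3 LC tumors by a small distance, and the difference did not pass the test (log2 fold change 0.39, SE 0.20, adjusted p = 0.173), but it did without LC replicate 1 (0.51, adjusted p = 0.0172). For Fbn1, 20.1% of the exonic bases overlap Gm9913 on the other strand. Fibrillin-2 (Fbn2), the fibrillin of developing tissue, had 0, 1 and 1 UMI in the LC tumors and 2, 3 and 2 UMIs in the IP+LC tumors, within the limit of detection in both groups.

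Of the proteins that decorate microfibrils, Mfap2 (MAGP-1) had the largest fitted change. Its level was 46.5, 69.7 and 56.8 CPM in the LC tumors and 15.2, 12.8 and 18.9 CPM in the IP+LC tumors. Every IP+LC tumor was below every LC tumor, and the decrease was 3.76-fold (log2 fold change -1.91, SE 0.25, adjusted p = 0.00142). Mfap5 (MAGP-2) was at 68.9, 52.5 and 59.3 CPM in the LC tumors and 36.3, 21 and 45 CPM in the IP+LC tumors, with a log2 fold change of -0.82 (SE 0.29, adjusted p = 0.0649). IP+LC replicate 3 was the closest to the LC tumors. The call of Mfap5 was lost when any 1 tumor other than LC replicate 1 or IP+LC replicate 3 was left out (adjusted p = 0.115 to 0.234). Mfap4, which binds elastin and collagen in the lung, was at 327, 289.9 and 276 CPM in the LC tumors and 196, 212 and 293 CPM in the IP+LC tumors. IP+LC replicate 3 overlapped the LC tumors, and the difference did not pass the test (log2 fold change -0.35, SE 0.22, adjusted p = 0.271).

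Fibulins join elastin to microfibrils and to cells. Fibulin-5 (Fbln5), which is needed for elastic fiber assembly, was at 44.8, 56.4 and 83.9 CPM in the LC tumors and 31.9, 33.9 and 34.1 CPM in the IP+LC tumors. The IP+LC tumors were nearly equal and LC replicate 3 was the highest (log2 fold change -0.91, SE 0.25, adjusted p = 0.028). Fibulin-1 (Fbln1) was at 41.3, 55.6 and 44.1 CPM in the LC tumors and 35.5, 18.1 and 22.5 CPM in the IP+LC tumors, with IP+LC replicate 1 nearest to the LC group (log2 fold change -0.92, SE 0.28, adjusted p = 0.0403). Fibulin-3 (Efemp1) was at 139, 191 and 169 CPM in the LC tumors and 91.4, 80.0 and 112 CPM in the IP+LC tumors and was lower in all IP+LC tumors (log2 fold change -0.83, SE 0.22, adjusted p = 0.023). Fibulin-4 (Efemp2), which brings lysyl oxidase to elastin, went the other way. It was at 55.1, 38.4 and 35.6 CPM in the LC tumors and 83.4, 69.5 and 61 CPM in the IP+LC tumors, and each IP+LC tumor was above each LC tumor (log2 fold change 0.76, SE 0.24, adjusted p = 0.0431, 1.70-fold higher). Fibulin-2 (Fbln2) was at 20.7, 21.2 and 14.4 CPM in the LC tumors and 36.3, 25.7 and 11.6 CPM in the IP+LC tumors. IP+LC replicate 1 was the highest and IP+LC replicate 3 the lowest of all 6, and the gene was not called (adjusted p = 0.493). Of these calls, Fbln1 was lost without LC replicate 2, IP+LC replicate 2 or IP+LC replicate 3 (adjusted p = 0.145 to 0.184), Fbln5 and Efemp1 without IP+LC replicate 1 or 2 (0.106 to 0.131), and Efemp2 without any 1 of LC replicates 2 and 3 and IP+LC replicates 1 and 2 (0.129 to 0.164).

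EMILINs are glycoproteins at the surface of elastic fibers. Emilin2 was at 29.3, 21.9 and 16.1 CPM in the LC tumors and 38.4, 43.8 and 52.3 CPM in the IP+LC tumors. All IP+LC tumors were above all LC tumors, and the increase was 2.07-fold (log2 fold change 1.05, SE 0.26, adjusted p = 0.0185). Emilin1 was at 108, 57.2 and 37.3 CPM in the LC tumors and 102, 97.5 and 104 CPM in the IP+LC tumors. LC replicate 1 was the highest of the 6 tumors and LC replicates 2 and 3 were the lowest, so the groups overlapped and the gene was not called (log2 fold change 0.63, SE 0.34, adjusted p = 0.199). Its log2 fold change without LC replicate 1 was 1.09 (adjusted p = 0.000247), and it was also called higher with all 6 libraries when no filter was used or limma voom weighted the samples, and in no other of the 17 settings.

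Crosslinking enzymes were called at about the rate of all tested genes (36.4%). Of the 7, all tested, 2 were higher (Loxl3 and Plod3), 1 was lower (Loxl1) and 4 were not called, with a median log2 fold change of 0.052 and summed levels of 266 to 305 CPM in the LC tumors and 310.1 to 330.4 CPM in the IP+LC tumors. Without Plod3 the sums overlapped, at 202 to 221 and 201 to 231 CPM. Lysyl oxidase (Lox), the classical crosslinker of collagen and elastin, was at 36.2, 50.1 and 34.7 CPM in the LC tumors and 45.7, 41.4 and 39.9 CPM in the IP+LC tumors. Each IP+LC tumor lay within the range of the LC tumors, and the log2 fold change was 0.052 (SE 0.22, adjusted p = 0.889). Loxl1, the member of the family tied to elastin renewal, was at 74, 80.7 and 75.4 CPM in the LC tumors and 47.9, 50.2 and 57.4 CPM in the IP+LC tumors. The 2 groups were separate and narrow (log2 fold change -0.57, SE 0.19, adjusted p = 0.0527). Loxl3 was at 10.3, 7.83 and 7.63 CPM in the LC tumors and 29, 16.9 and 13.8 CPM in the IP+LC tumors. It rested on 6, 10 and 9 UMIs in the LC tumors and on 40, 29 and 19 in the IP+LC tumors, with IP+LC replicate 1 the highest (log2 fold change 1.24, SE 0.39, adjusted p = 0.0419). Loxl2, an enzyme that acts on basement membrane collagen, was at 17.2, 9.40 and 10.2 CPM in the LC tumors and 9.43, 12.8 and 10.2 CPM in the IP+LC tumors and overlapped (adjusted p = 0.958). Its transcript holds stretches near-identical to other genes over 48.0% of its length, so its counts are uncertain.

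Of the lysyl hydroxylases, only Plod3 passed the test with all 6 libraries. Plod3, which also transfers sugars to collagen, was at 93, 65.8 and 64.4 CPM in the LC tumors and 96.4, 116 and 109 CPM in the IP+LC tumors. The highest LC tumor, replicate 1, was just below the lowest IP+LC tumor (log2 fold change 0.54, SE 0.22, adjusted p = 0.0935). Plod1 was at 56.8, 43.9 and 29.7 CPM in the LC tumors and 66.7, 58.4 and 52.3 CPM in the IP+LC tumors, with LC replicate 1 inside the IP+LC range (log2 fold change 0.48, SE 0.26, adjusted p = 0.199), and it was called without that library (0.69, adjusted p = 0.0143). Plod2, the telopeptide lysyl hydroxylase that is known as a fibrosis and hypoxia gene, was at 17.2, 29 and 44.1 CPM in the LC tumors and 31.9, 35 and 27.6 CPM in the IP+LC tumors. The LC tumors spread more widely than the IP+LC tumors, which lay inside their range, and the log2 fold change was 0.0040 (SE 0.31, adjusted p = 0.995). The call of Plod3 was lost when any 1 of the 5 tumors other than LC replicate 1 was left out (adjusted p = 0.151 to 0.275) and with a replicate block (0.167), that of Loxl1 without LC replicate 2 or any 1 IP+LC tumor (0.11 to 0.206) and with the block (0.12), and that of Loxl3 without LC replicate 2 or 3 or IP+LC replicate 1 (0.127 to 0.148). Htra2 and Znhit1 overlap 11.6% and 11.7% of the exonic bases of Loxl3 and Plod3 on the other strand.

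Matricellular and provisional matrix genes held the 3 largest fitted increases of the 36 genes. Of the 8 tested, 4 were higher (Vcan, Tnc, Thbs2 and Fn1), against 16.8% of all tested genes, 2 were lower (Postn and Sparcl1), against 19.6%, and 2 were not called (Sparc and Mgp). Versican (Vcan), the large hyaluronan-binding proteoglycan of provisional matrix, was at 46.5, 11.8 and 29.7 CPM in the LC tumors and 108, 94.6 and 73.3 CPM in the IP+LC tumors. The lowest IP+LC tumor was above the highest LC tumor, and the LC tumors differed among themselves, with replicate 2 the lowest. The increase was 3.36-fold (log2 fold change 1.75, SE 0.40, adjusted p = 0.0131). Tenascin-C (Tnc), a glycoprotein of wounds and tumor stroma, had 5, 13 and 3 UMIs in the LC tumors and 28, 42 and 33 in the IP+LC tumors, which is 8.61, 10.2 and 2.54 CPM in the LC tumors and 20.3, 24.5 and 24 CPM in the IP+LC tumors. The groups were separate (log2 fold change 1.71, SE 0.41, adjusted p = 0.0162, 3.28-fold higher). Thrombospondin-2 (Thbs2), which binds matrix proteases and restrains vessel growth, was at 10.3, 5.48 and 4.24 CPM in the LC tumors and 14.5, 16.3 and 14.5 CPM in the IP+LC tumors. The IP+LC tumors were nearly equal and the LC tumors rested on 6, 7 and 5 UMIs (log2 fold change 1.31, SE 0.37, adjusted p = 0.0289).

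Fibronectin (Fn1), on which other matrix proteins assemble, was at 449, 259 and 187 CPM in the LC tumors and 575, 594 and 685 CPM in the IP+LC tumors. LC replicate 1 was the highest of its group and still below the IP+LC tumors. The increase was 2.08-fold (log2 fold change 1.06, SE 0.31, adjusted p = 0.0339); without LC replicate 1 it was larger, at 1.47 on the log2 scale (adjusted p = 4.34e-06). The call of Fn1 was lost without LC replicate 2 or IP+LC replicate 2 or 3 (adjusted p = 0.102 to 0.129), and that of Thbs2 without LC replicate 2 or 3 or IP+LC replicate 2 (0.115 to 0.128). Vcan and Tnc kept their calls whichever tumor was left out.

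Periostin (Postn), which is often described beside tenascin-C in injured tissue, went in the other direction. It was at 148, 182 and 179.7 CPM in the LC tumors and 52.2, 45.5 and 66.8 CPM in the IP+LC tumors, and all IP+LC tumors were far below all LC tumors (3.11-fold lower, log2 fold change -1.64, SE 0.22, adjusted p = 0.00154). Sparcl1, the hevin gene of vessels and fibroblasts, was at 518, 655 and 623 CPM in the LC tumors and 268, 336 and 477 CPM in the IP+LC tumors and was also lower (log2 fold change -0.73, SE 0.25, adjusted p = 0.0579). That call was lost without LC replicate 2 or 3 or IP+LC replicate 1 or 2 (adjusted p = 0.121 to 0.224). Its relative Sparc (osteonectin) was at 1319, 1549.7 and 1798 CPM in the LC tumors and 1519.8, 1474 and 1635 CPM in the IP+LC tumors. The groups overlapped fully, and the log2 fold change was -0.013 (SE 0.21, adjusted p = 0.975). Matrix Gla protein (Mgp), an inhibitor of calcification in vessels and cartilage, was at 4023, 2778 and 3499 CPM in the LC tumors and 1787, 2119.9 and 2757 CPM in the IP+LC tumors. IP+LC replicate 3 was just below the lowest LC tumor, and the gene missed the limit (log2 fold change -0.63, SE 0.26, adjusted p = 0.105). It was called lower in 8 of 17 alternative settings, one of them without LC replicate 1 (-0.49, adjusted p = 0.0272). Cthrc1, a marker of activated fibroblasts in fibrosis, had 1, 6 and 8 UMIs in the LC tumors and 3, 13 and 7 in the IP+LC tumors, which was too few for the test.

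The 36 genes were also divided into 15 genes of resident fibroblast matrix, 12 of injury matrix and 9 that belong to neither. Of the 14 resident genes tested, 9 were lower (Dcn, Lum, Ogn, Prelp, Fbln1, Fbln5, Efemp1, Mfap5 and Sparcl1), 1 was higher (Efemp2) and 4 were not called (Eln, Fbn1, Mfap4 and Mgp), against 19.6% lower and 16.8% higher over all tested genes. The median log2 fold change was -0.82. Only 3 resident genes were lower when IP+LC replicate 2 was left out and 5 when IP+LC replicate 1 was. Leaving out LC replicate 2 gave 6 such genes. Of the 11 injury genes tested, 4 were higher (Vcan, Tnc, Fn1 and Thbs2), 3 were lower (Bgn, Aspn and Postn) and 4 were not called (Sparc, Lox, Loxl2 and Plod2), with a median of 0.0040. The share lower was near that of all tested genes, and the genes higher were 2 without LC replicate 2 or IP+LC replicate 2. Among the injury genes, Aspn and Postn had log2 fold changes of -1.97 and -1.64, lower than the median of the resident genes. Of the 8 tested genes in neither class, 3 were higher (Emilin2, Loxl3 and Plod3), 2 were lower (Mfap2 and Loxl1) and the median was 0.51. Of these, 5 were higher without LC replicate 1, and 1 was without LC replicate 2 or 3 or IP+LC replicate 1, while 1 was lower without LC replicate 2 or any 1 IP+LC tumor. The difference between the classes was not tested.

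The classes were also read in each tumor. The mean log2(CPM + 4) of the 15 resident genes was 7.21, 7.32 and 7.37 in the LC tumors and 6.46, 6.32 and 6.70 in the IP+LC tumors. This mean was lower in each IP+LC tumor than in any LC tumor, although Efemp2, one of the 15, was called higher. The mean of the 12 injury genes was 5.88, 5.77 and 5.80 in the LC tumors and 5.90, 5.99 and 5.90 in the IP+LC tumors, so that all 6 lay between 5.77 and 5.99. The IP+LC values were all above the LC values, with LC replicate 1 just below the lowest of them. The difference, injury minus resident, was -1.33, -1.55 and -1.57 in the LC tumors and -0.56, -0.34 and -0.79 in the IP+LC tumors. Ratios of UMIs within a library do not depend on its scaling. There were 0.946, 0.272 and 0.219 Fn1 UMIs per Dcn UMI in the LC tumors and 2.97, 3.99 and 3.64 in the IP+LC tumors. LC replicate 1 stood above its group and below each IP+LC tumor. There were 5.81, 5.60 and 1.42 Tnc UMIs per 100 Postn UMIs in the LC tumors and 38.9, 53.8 and 35.9 in the IP+LC tumors. Fbn1 UMIs per Mfap2 UMI, both genes of microfibrils, were 1.48, 0.764 and 0.970 in the LC tumors and 5, 6.05 and 4 in the IP+LC tumors. There were 27.0, 38.4 and 43.2 Emilin2 UMIs per 100 Emilin1 UMIs in the LC tumors and 37.9, 44.9 and 50.3 in the IP+LC tumors, and these overlapped. The pairs were chosen with the direction of both genes known and were not tested.

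**Figure D3:**
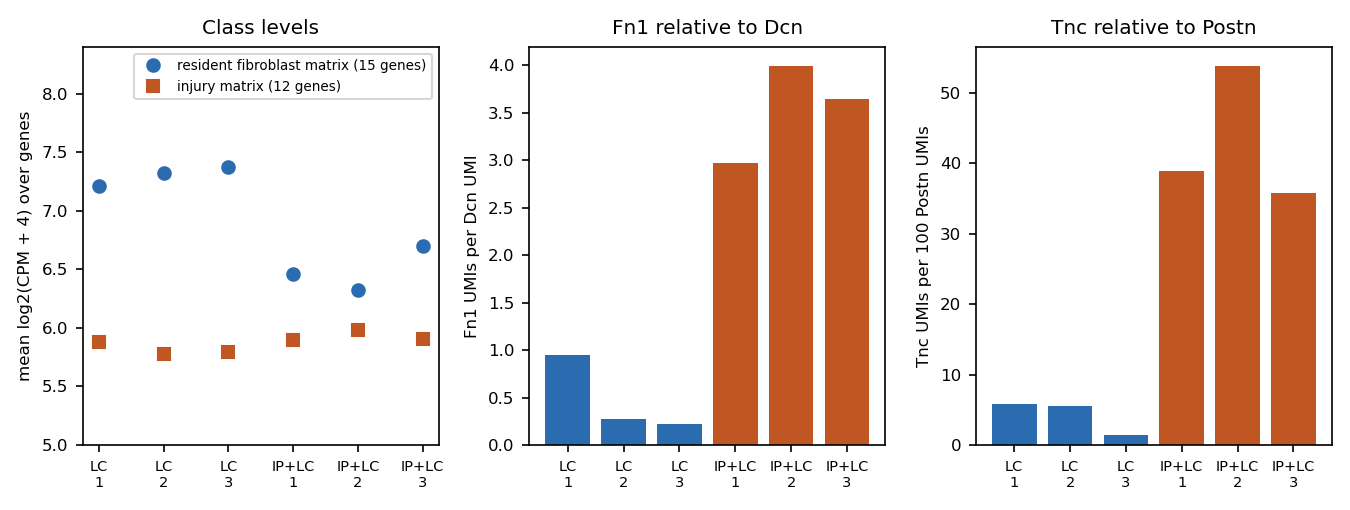
Mean log2(CPM + 4) of the resident and the injury genes, Fn1 UMIs per Dcn UMI and Tnc UMIs per 100 Postn UMIs, each in the 6 tumors. The resident mean is 7.21 to 7.37 in the LC and 6.32 to 6.70 in the IP+LC tumors. The injury mean is 5.77 to 5.88 in the LC and 5.90 to 5.99 in the IP+LC tumors, and both ratios are higher in every IP+LC tumor.

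Marker lists of cells that make these proteins, or that a lung tumor piece can hold, also differed between the groups. Of 13 fibroblast markers tested, 9 were lower and 2 were higher, against 19.6% and 16.8% of all tested genes. The share higher was near that of all genes. The summed level of the 14 listed was 3239 to 4483 CPM in the LC tumors and 1958 to 2116 CPM in the IP+LC tumors. Inmt, a gene of lung fibroblasts, had the highest LC levels of the list, at 1598, 2616 and 2470.2 CPM in the LC tumors and 268, 133 and 174 CPM in the IP+LC tumors. The other 13 markers summed to 1641 to 1867 CPM in the LC tumors and 1783 to 1861 CPM in the IP+LC tumors, which overlapped. These 13 hold 3 fibrillar collagen genes, and the 10 others summed to 734 to 1023 and 343 to 414 CPM, with 8 of 9 tested lower. The receptor Pdgfra, a marker of resident fibroblasts, was at 89.5, 109 and 114 CPM in the LC tumors and 42.8, 51.9 and 55.2 CPM in the IP+LC tumors. Tcf21, a transcription factor of lung lipofibroblasts, was at 67.2, 106 and 97.5 CPM in the LC tumors and 23.9, 11.1 and 21.8 CPM in the IP+LC tumors. Both were lower in each IP+LC tumor, with log2 fold changes of -1.06 (SE 0.21, adjusted p = 0.00657) and -2.28 (SE 0.31, adjusted p = 0.00162). Of the 3 fibrillar collagen genes in the same list, 2 rose. Col1a1 was at 82.7, 165 and 176 CPM in the LC tumors and 366, 440.1 and 336 CPM in the IP+LC tumors (log2 fold change 1.42, SE 0.29, adjusted p = 0.00844). Col1a2 was at 281, 324 and 268 CPM in the LC tumors and 412, 521 and 453 CPM in the IP+LC tumors (log2 fold change 0.67, SE 0.20, adjusted p = 0.0355), while Col3a1 was not called (adjusted p = 0.106). The call of Col1a2 was lost without LC replicate 3 or IP+LC replicate 2 (adjusted p = 0.111 and 0.142), and without LC replicate 1 Col3a1 and Thy1 were also called higher.

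All 8 markers of smooth muscle and myofibroblasts were lower, against 19.6% of all tested genes. Among them Acta2 was at 359.9, 572 and 464 CPM in the LC tumors and 125, 88.1 and 131 CPM in the IP+LC tumors. The sum of the 8 markers was 790.4 to 1252 CPM in the LC tumors and 244 to 336 CPM in the IP+LC tumors. All 8 endothelial markers were lower (sums 1102 to 1919 against 388 to 490.1 CPM), as were all 5 tested of 6 mesothelial markers (307 to 489 against 109.7 to 165 CPM), of which 3 were lower without LC replicate 2 or IP+LC replicate 2. The 8 alveolar markers (36501 to 45545 against 6385 to 11535 CPM), the 6 airway markers (49247 to 58156 against 3361 to 7225 CPM) and the 5 tested of 6 cardiac markers (706 to 1626 against 136 to 314 CPM) were lower as well. Of 8 macrophage markers, 3 were higher and 1, Lyz2, was lower, against 16.8% and 19.6% of all tested genes. The 8 together summed to 13038 to 15227 CPM in the LC tumors and 7465 to 9025 CPM in the IP+LC tumors. Lyz2 made up most of this sum, and alveolar type II cells also express it. The other 7 summed to 1810, 664 and 512 CPM in the LC tumors and 1779, 2202 and 1982 CPM in the IP+LC tumors, so that LC replicate 1 overlapped the IP+LC tumors and LC replicates 2 and 3 were below them. Of 7 proliferation markers, 6 were higher, with sums of 113 to 449 CPM in the LC and 957 to 1133 CPM in the IP+LC tumors. C1qa, a macrophage gene, was at 568, 157 and 110.2 CPM in the LC tumors and 585, 791 and 733 CPM in the IP+LC tumors. The cell cycle kinase gene Cdk1 was at 169, 21.9 and 17.8 CPM in the LC tumors and 169.7, 155 and 130.0 CPM in the IP+LC tumors. It was the 1 proliferation marker that was not called (adjusted p = 0.221). Of the LC tumors, replicate 1 was nearest to the IP+LC tumors for C1qa and Cdk1. Macrophage markers higher were 6 without LC replicate 1 and 1 without any 1 other tumor. Proliferation markers higher were 7 without LC replicate 1 and 4 without any 1 other tumor. Cartilage is a known source of Mgp and Prelp, and chondrocyte markers summed to 3.44 to 7.63 CPM in the LC and 1.17 to 5.81 CPM in the IP+LC tumors, and none had enough UMIs for the test. That list is not a full set of cartilage genes and leaves out chondroadherin (Chad). Chad was at 39.6, 84.6 and 64.4 CPM in the LC tumors and 4.35, 7 and 7.26 CPM in the IP+LC tumors. Of 7 skeletal muscle markers, 1 was tested and was lower. The part of these cell types in the matrix genes was not tested.

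**Figure D4:**
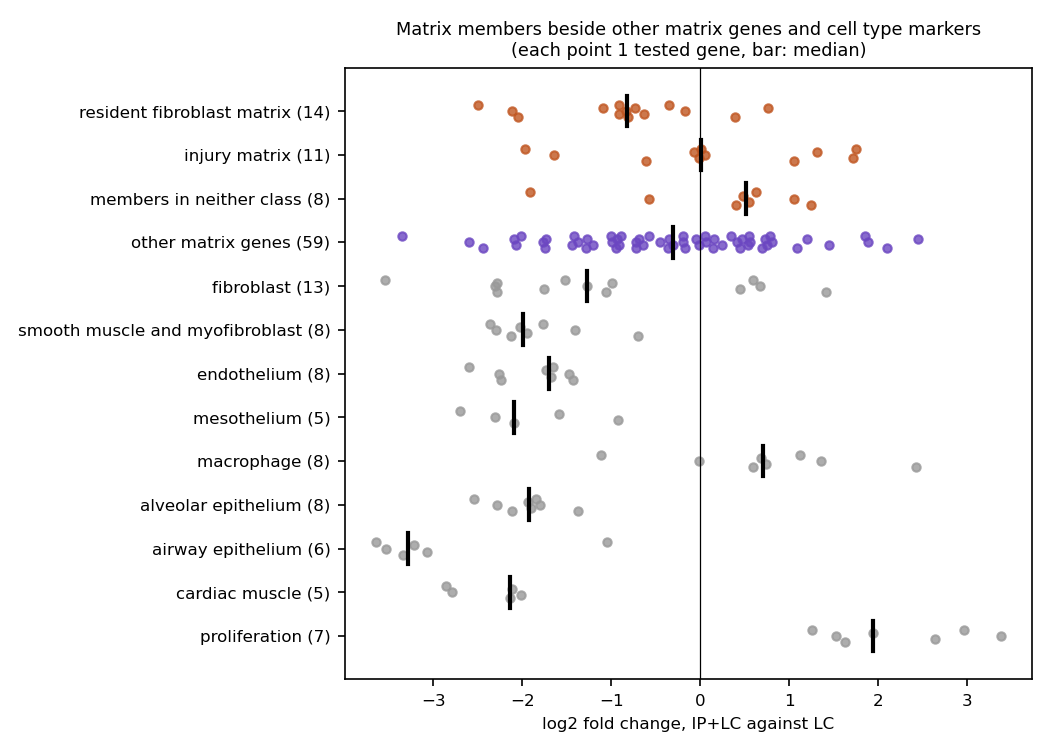
Log2 fold change, IP+LC against LC, of each tested gene of the 3 matrix classes, the other matrix genes and the marker lists, 1 point per gene with the median as a bar. The resident matrix genes have a median of -0.82 and the fibroblast markers of -1.27, while the injury genes lie on both sides of 0.

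Other genes of the matrix, taken as a list of proteoglycans, latent TGF-β binding proteins, CCN proteins, collagen-processing enzymes and related glycoproteins, moved in both directions. The files held 86 of them, of which 59 were tested, 9 were higher and 24 were lower, against 16.8% and 19.6% of all tested genes, with a median log2 fold change of -0.31. The share higher was near that of all genes. The lower genes numbered 13 without LC replicate 2 or IP+LC replicate 2 and 15 without LC replicate 3. The higher genes numbered 17 without LC replicate 1, 4 or 5 without LC replicate 2, IP+LC replicate 2 or IP+LC replicate 3, and 6 without either of the other two. The 4 largest increases, among called genes whose groups did not overlap and whose higher group had 10 UMIs or more in each tumor, were those of Podnl1, Adamts14, Ccn4 and Tgfbi. Podnl1, a leucine-rich proteoglycan, was at 8.61, 1.57 and 0.847 CPM in the LC tumors and 13.1, 20.4 and 11.6 CPM in the IP+LC tumors (log2 fold change 2.44, SE 0.62, adjusted p = 0.0204). Adamts14, a procollagen peptidase, was at 6.89, 3.92 and 1.69 CPM in the LC tumors and 18.1, 16.3 and 13.8 CPM in the IP+LC tumors (log2 fold change 2.10, SE 0.43, adjusted p = 0.00864). The LC tumors held 1 to 5 UMIs of each, so both LC levels rest on few UMIs, and the call of Podnl1 was lost without LC replicate 2 or IP+LC replicate 2 (adjusted p = 0.111 to 0.112). Ccn4, a matricellular protein and Wnt target, was at 6.89, 7.05 and 5.08 CPM in the LC tumors and 19.6, 21 and 29.8 CPM in the IP+LC tumors (log2 fold change 1.88, SE 0.34, adjusted p = 0.00498). Tgfbi, an adhesion protein induced by TGF-β, was at 141, 96.4 and 77.1 CPM in the LC tumors and 347, 444 and 329 CPM in the IP+LC tumors (log2 fold change 1.85, SE 0.27, adjusted p = 0.00204).

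By the same rule, the 4 largest decreases were those of Chad, Vtn, Pcolce2 and Ltbp4. Chondroadherin (Chad), a leucine-rich matrix protein, was at 39.6, 84.6 and 64.4 CPM in the LC tumors and 4.35, 7 and 7.26 CPM in the IP+LC tumors (log2 fold change -3.35, SE 0.35, adjusted p = 0.000859). Vitronectin (Vtn), an adhesion protein of plasma and matrix, was at 22.4, 25.1 and 22.9 CPM in the LC tumors and 3.63, 3.50 and 5.81 CPM in the IP+LC tumors (log2 fold change -2.44, SE 0.32, adjusted p = 0.00149). In both, the IP+LC tumors were several times lower than any LC tumor. Pcolce2, which enhances the procollagen C-proteinase, was at 143, 427 and 372 CPM in the LC tumors and 90.6, 59 and 76.2 CPM in the IP+LC tumors (log2 fold change -2.07, SE 0.39, adjusted p = 0.00567). Ltbp4, which holds latent TGF-β and helps to assemble elastic fibers, was at 143, 119.9 and 114 CPM in the LC tumors and 50.8, 28 and 31.2 CPM in the IP+LC tumors (log2 fold change -1.77, SE 0.26, adjusted p = 0.00226).

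**Figure D5:**
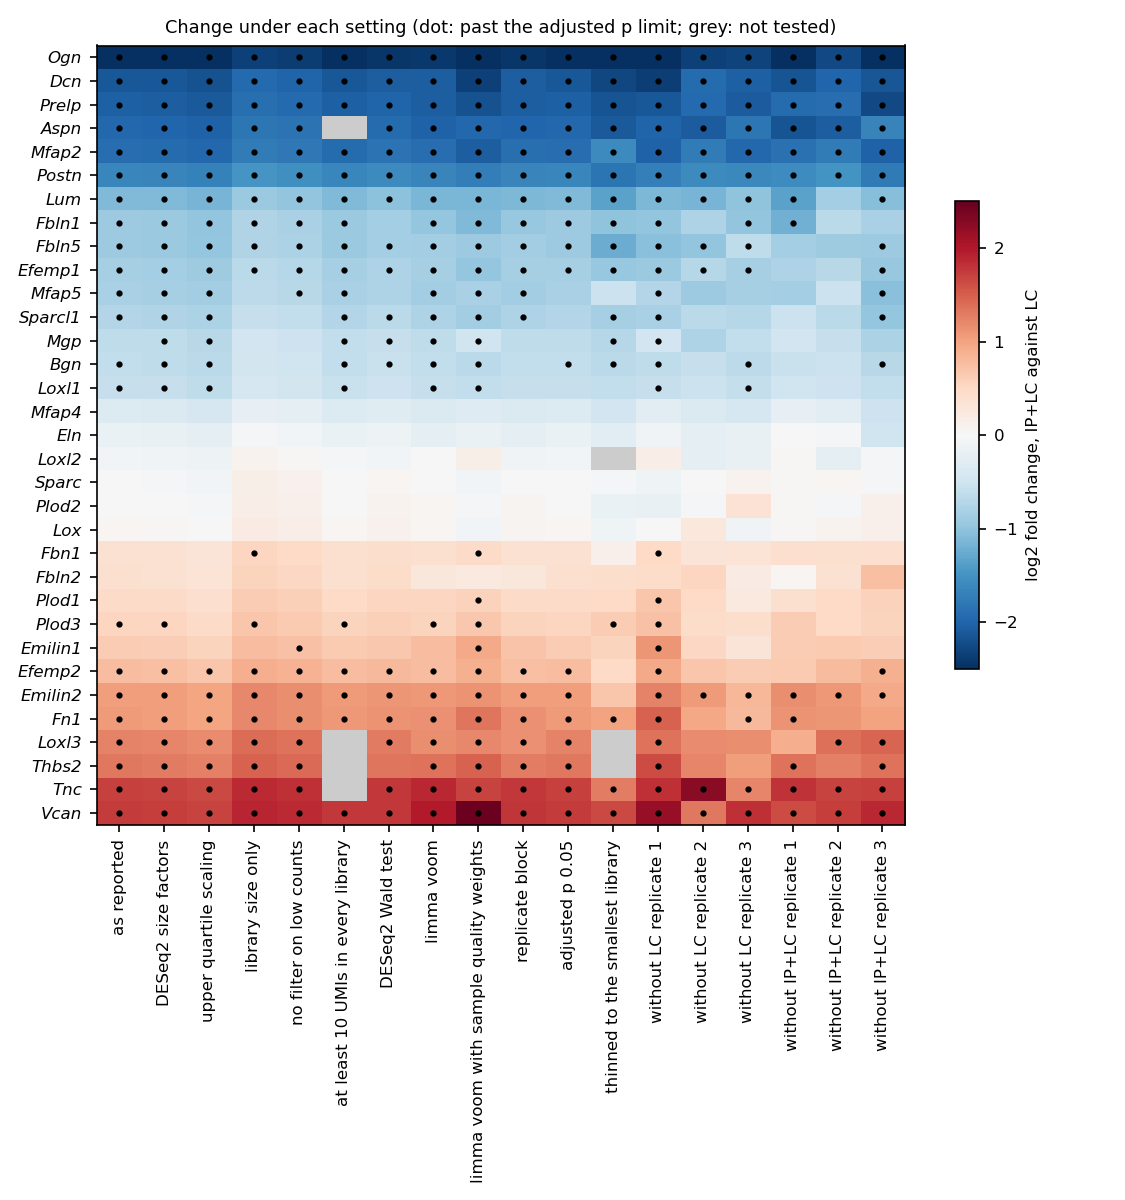
Log2 fold change of the 33 tested matrix genes (rows) as reported and under 17 other settings (columns), from blue (lower in IP+LC) to red (higher), with a dot where the gene passed the limit and grey where it was not tested. Ogn, Dcn, Prelp, Mfap2, Postn and Vcan carry a dot in all columns, and Aspn and Tnc in all columns where they were tested.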

How the data were processed

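Libraries of 6 tumors (3 per group) were made by a bulk barcoding method whose oligo-dT primer carries a UMI of 10 nucleotides. Per the labels and the methods, the authors extracted UMIs with UMI-tools 1.1.1, trimmed the insert reads of 81 bases with Trim Galore 0.6.7, dropped reads under 20 bases, aligned to GRCm38 with HISAT2 2.2.1, assigned reads with featureCounts 2.0.1 and deposited unnormalized counts of different UMIs per gene. The annotation release and the strand setting are not given in the sources used here. DESeq2 is named in the submitters' processing notes, and the methods name the web tool iDEP with an adjusted p limit of 0.1. Which test was run in it is not stated. DESeq2's Wald test on the deposited counts gave 1478 genes higher and 1737 lower at that limit, the same counts that the paper reports. The main calls in this text come from edgeR's test. Counting at the 3′ end means that a count does not grow with transcript length. Depth ran from 592733 to 1631066 UMIs, and counting error is that of these UMIs.

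Groups came from the sample titles, and no batch is labelled. P-values set the difference between the groups against the spread between these tumors, which was estimated with information shared across genes. Within a group the libraries differed by more than counting noise (chi-square per degree of freedom 2.65 to 17.8), so no pair agreed within sampling noise. In R 4.3.3, edgeR 4.0.16 kept genes by filterByExpr (minimum count 10, minimum total 15), scaled by TMM and ran the quasi-likelihood test over all genes with Benjamini-Hochberg adjustment and a limit of 0.1. CPM are per UMIs in tested genes, after TMM scaling. Alternatives used DESeq2 1.42.0, limma 3.58.1, other scalings and filters, thinning to 592733 UMIs and leaving out each tumor. The procedure was tested on simulated counts. Coordinates and overlaps are from GENCODE M21, and near-identical stretches are blastn 2.17.0+ matches of at least 81 bases at 95% identity.

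The 36 genes, the classes and the lists were chosen with earlier results of these data known. All 36 were to be named, with, of the other matrix genes, the 4 largest increases and decreases among called genes whose groups did not overlap and whose higher group had 10 UMIs or more in each tumor, and up to 3 markers per list. Fibroblast markers outside those 3, such as Pdgfra and Tcf21, were named after their values were seen.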

Additional observations from a re-analysis of the deposited data

How the results depend on the processing

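Of the 22 called genes, 8 (Dcn, Ogn, Prelp, Aspn, Mfap2, Postn, Vcan and Tnc) were past the limit in every one of the 17 alternative settings in which they were tested. Over all settings, 447 of 554 results kept their direction and side of the limit, 66 were no longer past it, 16 came past it and 25 changed sign. Scaling by library totals moved the median of all genes by 0.16 on the log2 scale; 9 of the 36 genes were then higher (Fbn1 was gained) and 10 lower (Bgn, Loxl1, Mfap5 and Sparcl1 were lost).

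With limma voom and sample quality weights, 6233 genes of all were called and 18 of the other matrix genes were higher. Thinned to the smallest library, 2340 were called and 4 of the 36 genes were higher. Efemp2 and Emilin2 were then lost, and Loxl3 and Thbs2 were not tested. Of the other matrix genes, 4 were higher and 8 lower. With at least 10 UMIs in every library, 5 of the 36 were higher, because Loxl3, Thbs2 and Tnc were not tested, 2 of the injury genes were higher and 11 of the other matrix genes were lower. DESeq2's Wald test lost Plod3, Thbs2, Fbln1, Loxl1 and Mfap5 and called Mgp lower, and without a filter Plod3, Bgn, Loxl1 and Sparcl1 were lost and Emilin1 was gained. The other matrix genes counted 14 higher with library size only and 14 with no filter on low counts, and 14 lower with DESeq2's Wald test and 14 at an adjusted p of 0.05.

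When 1 tumor was left out, called genes ranged from 2265 without IP+LC replicate 2 to 6691 without LC replicate 1. Among the 36 genes, 3 (without LC replicate 2) to 11 (without LC replicate 1) were higher and 6 (without IP+LC replicate 2) to 15 (without LC replicate 1) were lower. Resident genes lower ranged from 3 to 10, injury genes higher from 2 to 4, injury genes lower from 2 to 3, other matrix genes higher from 4 to 17 and lower from 13 to 30.

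The sign of 5 genes that were not called was not stable, and none of their values passed the limit. Lox was -0.0098 with upper quartile scaling, -0.068 with quality weights and -0.10 when thinned, and -0.081 to 0.26 when 1 tumor was left out. Loxl2 was 0.088 with library size only, 0.030 with no filter and 0.14 with quality weights, and -0.25 to 0.17 with 1 tumor left out. Sparc was 0.15 with library size only, 0.10 with no filter and 0.042 with DESeq2's Wald test, and -0.11 to 0.091 with 1 tumor left out. Plod2 was -0.013 with DESeq2's size factors, -0.053 with upper quartile scaling, -0.016 with at least 10 UMIs, -0.027 with quality weights and -0.16 when thinned, and -0.19 to 0.35 with 1 tumor left out. Eln ranged from -0.49 to 0.018 with 1 tumor left out. The cause was not tested for any of these changes.

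The replicate numbers are shared by the groups. Same-numbered tumors had r of 0.026, -0.12 and 0.11 between their deviations from the group mean, and differently numbered tumors -0.14 to 0.13. With 3 tumors per group this check cannot decide whether the numbers pair the tumors. With the replicate block, 3410 genes were called, 7 of the 36 were higher (Plod3 was lost) and 12 were lower (Bgn and Loxl1 were lost). Depth limits genes with few UMIs. Fmod, Fbn2 and Cthrc1 had 0 to 13 UMIs in each library and were not tested, and Tnc, Thbs2 and Loxl3 rest on 3 to 13 UMIs in each LC tumor.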

Other observations

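Genes that fold, modify and bind collagen and other matrix proteins, outside the 36, were read after their values were seen. Serpinh1, the collagen chaperone HSP47, was at 546, 393 and 285 CPM in the LC tumors and 964, 843 and 791 CPM in the IP+LC tumors. Every IP+LC tumor was above every LC tumor (log2 fold change 1.09, SE 0.26, adjusted p = 0.0162). The collagen prolyl hydroxylase genes P4ha1 and P4ha2 were not called, with log2 fold changes of 0.47 (adjusted p = 0.175) and 0.15 (adjusted p = 0.621). Of the prolyl 3-hydroxylase complex, P3h1 was not called (0.81, adjusted p = 0.141) but passed the limit in 6 of 17 alternative settings, one of them without LC replicate 1, and P3h4, which works with lysyl hydroxylase 1, had a log2 fold change of -0.72 (SE 0.25, adjusted p = 0.057). The call of P3h4 was lost in 11 of 17 alternative settings, among them leaving out any 1 tumor other than LC replicate 1 (adjusted p = 0.104 to 0.173) and the replicate block.

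Osteopontin (Spp1), a product of macrophages and tumor cells, was at 1576, 417 and 275 CPM in the LC tumors and 1856, 2111 and 2193 CPM in the IP+LC tumors. LC replicate 1 was close to the IP+LC group (log2 fold change 1.45, SE 0.56, adjusted p = 0.086), and the call was lost when any 1 of the other 5 tumors was left out (adjusted p = 0.163 to 0.252) and with upper quartile scaling. Of the CCN family, Ccn3 was lower (-2.60, adjusted p = 0.00335), as was Ccn2, known as CTGF and as a target of TGF-β (-0.69, adjusted p = 0.0797), while Ccn4 was higher and Ccn1 and Ccn5 were not called (-0.19 and -0.58, adjusted p = 0.469 and 0.224). The call of Ccn2 was lost in 9 of the 17 settings, among them leaving out LC replicate 2 or 3 or IP+LC replicate 1 or 2 (adjusted p = 0.154 to 0.284). The stromal proteins tenascin-X (Tnxb), hemicentin-1 (Hmcn1) and dermatopontin (Dpt) were lower, with log2 fold changes of -1.74, -2.01 and -1.27 (adjusted p = 0.014, 0.00947 and 0.00248), and Thbs3 fell by 1.20 on the log2 scale (adjusted p = 0.00885), whereas Thbs1 was not called (0.15, adjusted p = 0.706).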
